A study of Mus musculus with 10 samples.

Results

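The collapsin response mediator proteins (CRMPs) are a family of cytosolic proteins that link guidance signals outside a growing neuron to its cytoskeleton. Each was examined here by gene symbol, and the 5 members, Crmp1, Dpysl2, Dpysl3, Dpysl4 and Dpysl5, were 5 of the 48526 gene identifiers in the expression table. RNA came from the microdissected dentate gyrus of C57Bl/6 mice aged 8 weeks. An adeno-associated virus of serotype 9 had been injected on both sides of the brain, carrying GFP in 5 control mice and the transcription factor Sox11 in 5 treated mice. The comparison asks how Sox11 supplied by a virus alters transcript levels. The promoter of the viruses, the cells they entered and the time between injection and dissection were not given in the sources used here.

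CRMPs bind tubulin, actin-associated proteins and motor adaptors, and their binding is switched off by phosphorylation downstream of semaphorin 3A and other repulsive cues. They resemble the pyrimidine-degrading enzyme dihydropyrimidinase in sequence, assemble as tetramers and have lost the enzymatic activity. In the adult dentate gyrus they are known from newborn granule neurons that extend axons and dendrites, and several of them are also made by mature neurons and by oligodendrocytes.

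Libraries carry the column numbers of the expression table, which are 1, 3, 4, 5 and 6 for GFP and 1, 2, 3, 6 and 7 for Sox11. Sox11 itself ranged from 1364 to 1634 normalized counts (reads divided by a factor for each library) under GFP and from 9803 to 20434 under Sox11, with the highest value in Sox11 3. Reads from the viral and the mouse copy are not told apart. Prox1 and Calb1, which mark granule neurons, had means of 15854 and 13723 normalized counts in the GFP group, and markers of interneurons, astrocytes, oligodendrocytes, microglia and endothelium were also measured in each group, so the tissue is a mixture. GFP 3 stood apart in the choroid plexus transcript Ttr, with 345861 normalized counts against 34.9 to 1312 elsewhere. In such tissue a rise in the number of cells of a type and a rise in RNA per cell cannot be told apart.

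Of the 5 CRMP genes 4 rose in the Sox11 libraries, none fell, and Dpysl2 did not pass the test. The order of the increases was Dpysl3 (2.76-fold), Dpysl5 (1.98-fold), Crmp1 (1.63-fold) and Dpysl4 (1.59-fold). Of all 17007 genes tested 19.0% passed limma's test (adjusted p under 0.05, Benjamini-Hochberg over those genes), with 9.65% that rose and 9.36% that fell. The median log2 fold change was 0.70 over the members and -0.01 over all genes tested, and 87 genes had a larger increase than Dpysl3. The same 4 members were those whose GFP and Sox11 values did not overlap. Of all genes tested 15.9% had no overlap, 8.63% with higher and 7.29% with lower values under Sox11.

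**Figure D1:**
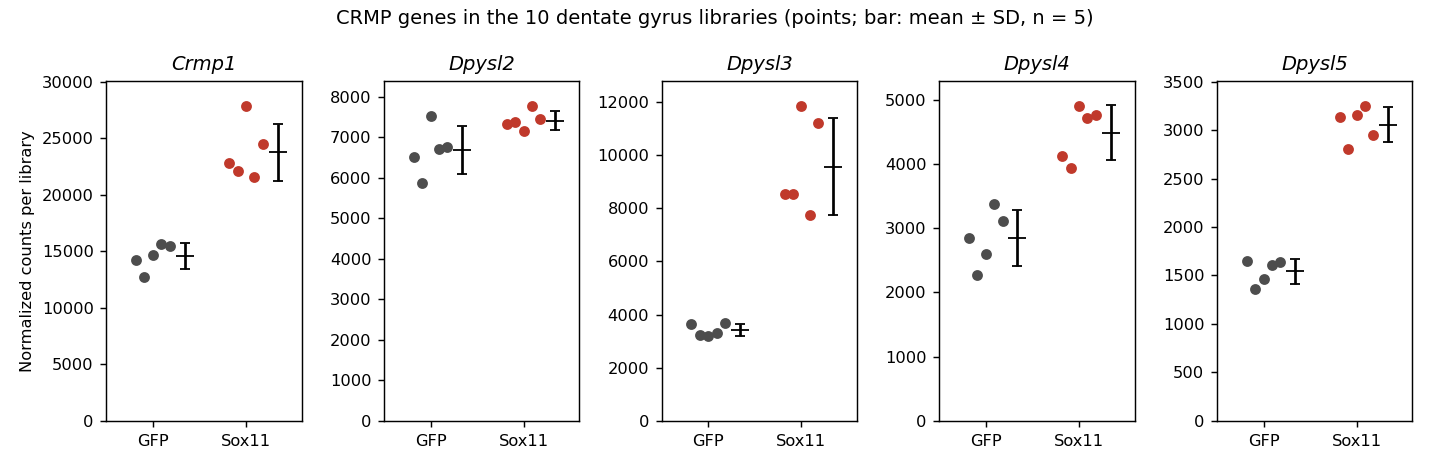
Normalized counts of each CRMP gene (vertical axes from 0) in the 5 GFP and 5 Sox11 libraries, 1 point a library, with the mean ± SD beside the points. For Dpysl3 the highest GFP library is at 3693 and the lowest Sox11 library at 7728, whereas for Dpysl2 the ranges of 5869 to 7521 and 7153 to 7766 overlap.

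Dpysl3 encodes CRMP4, which bundles actin filaments and binds microtubules in growth cones and is a marker of newborn granule neurons. The gene (ENSMUSG00000024501, chromosome 18, 43320984 to 43438286, minus strand, GRCm38) had 3662, 3229.6, 3200.5, 3314 and 3693 normalized counts in GFP 1, 3, 4, 5 and 6. In Sox11 1, 2, 3, 6 and 7 it had 8537, 8552, 11839.5, 7728 and 11197. Each Sox11 library lay above every GFP library, by at least 2.09-fold, and Sox11 3 and Sox11 7 were the highest. The means were 3420 ± 239 and 9571 ± 1823 normalized counts (SD, n = 5 each), which on the log2 scale is a rise of 1.47 (SE 0.11, limma adjusted p = 2.40e-05). The coefficient of variation between libraries was 6.99% under GFP and 19.0% under Sox11.

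Dpysl5 encodes CRMP5, the member most distant from the others in sequence, which binds tubulin and is known to counteract the growth-promoting action of CRMP2. The gene (ENSMUSG00000029168, chromosome 5, 30711564 to 30799375, plus strand, GRCm38) had 1652, 1357, 1464, 1604 and 1639 normalized counts in GFP 1, 3, 4, 5 and 6. The Sox11 libraries 1, 2, 3, 6 and 7 had 3131, 2804, 3157, 3246 and 2947. The groups stood apart with a narrow spread in each, and Sox11 3, the library with the most Sox11, was not the highest. The means of 1543 ± 128 and 3057 ± 178 normalized counts (SD, n = 5 each) differed by 0.99 on the log2 scale (SE 0.06, limma adjusted p = 9.18e-06).

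Crmp1 encodes CRMP1, a member that carries semaphorin 3A signals to the cytoskeleton of cortical and hippocampal neurons. The gene (ENSMUSG00000029121, chromosome 5, 37241940 to 37292133, plus strand, GRCm38) had 14236, 12749, 14710.2, 15645 and 15478 normalized counts in GFP 1, 3, 4, 5 and 6. In Sox11 1, 2, 3, 6 and 7 it had 22762, 22102, 27828, 21572 and 24482. The groups did not overlap, and Sox11 3 was the highest library while GFP 3 was the lowest. From 14564 ± 1165 to 23749 ± 2530 normalized counts (SD, n = 5 each), the rise was 0.70 on the log2 scale (SE 0.08, limma adjusted p = 0.000213).

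Dpysl4 encodes CRMP3, which is known for a role in dendrite branching and spine form in the hippocampus. The gene (ENSMUSG00000025478, chromosome 7, 139086001 to 139102704, plus strand, GRCm38) had 2851, 2268, 2591, 3380.2 and 3115 normalized counts in GFP 1, 3, 4, 5 and 6, and 4122, 3938, 4897, 4712 and 4754 in Sox11 1, 2, 3, 6 and 7. The lowest Sox11 library exceeded the highest GFP library by 1.16-fold, the narrowest gap of the 4 members that rose. The means were 2841 ± 435 and 4485 ± 426 normalized counts (SD, n = 5 each), which amounts to 0.67 on the log2 scale (SE 0.10, limma adjusted p = 0.00153).

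Dpysl2 encodes CRMP2, which binds tubulin dimers, promotes microtubule assembly and helps to specify the axon. The gene (ENSMUSG00000022048, chromosome 14, 66802864 to 66868688, minus strand, GRCm38) had 6515, 5869, 7521, 6716 and 6768 normalized counts in GFP 1, 3, 4, 5 and 6. Sox11 1, 2, 3, 6 and 7 had 7321, 7381, 7153, 7766 and 7445. GFP 4 lay above 4 of the 5 Sox11 libraries, and Sox11 3 was the lowest of its group. The means were 6678 ± 592 and 7413 ± 225 normalized counts (SD, n = 5 each), and their difference on the log2 scale was 0.15 (SE 0.06, 95% interval 0.02 to 0.29, limma adjusted p = 0.0970). Without GFP 4 the gene passed at a log2 fold change of 0.20 (limma adjusted p = 0.0294), while leaving out any of the remaining libraries gave adjusted p-values up to 0.178. It also passed with quantile normalization (0.18, adjusted p = 0.0210) and with a term for column numbers 1 to 3 against 4 to 7 (0.18, adjusted p = 0.0214).

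**Figure D2:**
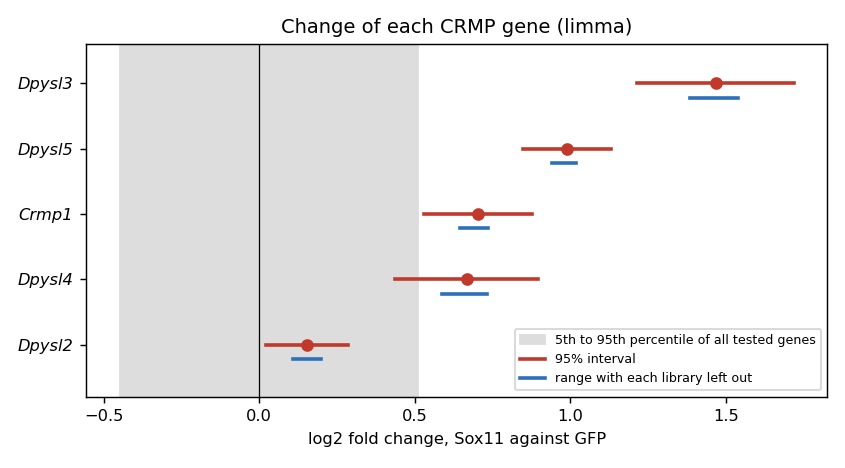
Log2 fold change of each CRMP gene (horizontal axis, Sox11 against GFP) with its 95% interval in red and, in blue, the range of the estimate when each of the 10 libraries was left out. The grey band spans the 5th to 95th percentile of all genes tested, from -0.45 to 0.51, and the estimate for Dpysl2 is the one that lies within it.

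GFP 3 had the lowest GFP value of each member but Dpysl3, and Sox11 3 the highest value of Crmp1, Dpysl3 and Dpysl4. The increases of the 4 members that rose did not rest on either library. Without GFP 3 the log2 fold changes were 1.45 for Dpysl3, 0.94 for Dpysl5, 0.66 for Crmp1 and 0.59 for Dpysl4. Without Sox11 3 they were 1.38, 0.98, 0.64 and 0.63 in the same order. Among the libraries numbered 1 to 3 (2 GFP and 3 Sox11) they were 1.47, 1.01, 0.84 and 0.76, and among those numbered 4 to 7 (3 GFP and 2 Sox11) 1.45, 0.98, 0.59 and 0.65. Each of these estimates passed the threshold in limma's test, and the labels do not say what the column numbers stand for.

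Members differed from each other in how far they changed. For each of the 10 pairs of members the log2 ratio was taken within each library, which removes the library factor, and compared between the groups by a two-sided exact permutation test with Benjamini-Hochberg adjustment over the 10 pairs. The ratio changed for 9 pairs. For 8 of them the groups did not overlap, and the exact permutation p was 0.00794, the lowest value possible with 5 libraries in each of 2 groups (adjusted p = 0.00992). The pairs share members and so are not independent, and pairs of other genes were not compared. Dpysl3 gained on every other member. Its ratio to Dpysl2 went from -0.96 ± 0.17 to 0.35 ± 0.30 on the log2 scale (SD, n = 5 each), a 2.48-fold change.

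The ratio of Dpysl3 to Crmp1 rose by 0.76 on the log2 scale, to Dpysl4 by 0.80 and to Dpysl5 by 0.48. The last had the narrowest gap, with a highest GFP ratio and a lowest Sox11 ratio that were both 1.25 on the log2 scale. Dpysl5 gained on Dpysl2 by 0.83 and on Dpysl4 by 0.32. Its gain on Crmp1 was 0.28, with overlapping groups (exact permutation p = 0.0159, adjusted p = 0.0176). Crmp1 and Dpysl4 gained on Dpysl2 by 0.55 and 0.51. Crmp1 and Dpysl4 could not be distinguished, since their log2 ratio was 2.37 ± 0.13 under GFP and 2.40 ± 0.13 under Sox11 (SD, n = 5 each; exact permutation p = 0.611, adjusted p = 0.611).

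Levels of different genes were compared as normalized counts per kilobase of exonic sequence, the union of a gene's annotated exons. In the GFP group the order was Crmp1 (2067 ± 165 per kilobase), Dpysl2 (1477 ± 131), Dpysl3 (518 ± 36.2), Dpysl4 (475 ± 72.7) and Dpysl5 (209 ± 17.4, each mean ± SD, n = 5). Neighbours in this order had separate ranges except Dpysl3 and Dpysl4, whose levels overlapped. In the Sox11 group the levels were 3371 ± 359 for Crmp1, 1640.1 ± 49.8 for Dpysl2, 1448 ± 276 for Dpysl3, 749.6 ± 71.2 for Dpysl4 and 414 ± 24.2 for Dpysl5. There the overlapping neighbours were Dpysl2 and Dpysl3, with Dpysl2 higher in 3 of the 5 libraries. The level of Dpysl2 was 2.85 times that of Dpysl3 under GFP and 1.13 times under Sox11.

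The summed level of the family was 4746 ± 347 normalized counts per kilobase under GFP and 7623 ± 643 under Sox11 (SD, n = 5 each), a ratio of 1.61. GFP libraries lay between 4159.7 and 4996 and Sox11 libraries between 7102 and 8570.1. Within that sum Dpysl2 made up 31.1% ± 1.79 under GFP and 21.7% ± 2.17 under Sox11, and Dpysl3 10.9% ± 0.887 and 18.9% ± 2.09. Crmp1 held a share of 43.5% ± 0.710 and 44.2% ± 1.29, the largest in each library, and Dpysl4 one of 9.97% ± 0.992 and 9.84% ± 0.675. Dpysl5 was the smallest component, at 4.41% ± 0.240 and 5.46% ± 0.514. These levels depend on the length used, most of all for Crmp1, whose exons cover 7046 bases in 10 annotated transcripts while its longest transcript has 3051 bases. With the longest transcript as length Crmp1 made up 60.8% and 60.6% of the sum, Dpysl4 lay above Dpysl3 in the GFP group, and Dpysl3 above Dpysl2 in the Sox11 group.

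**Figure D3:**
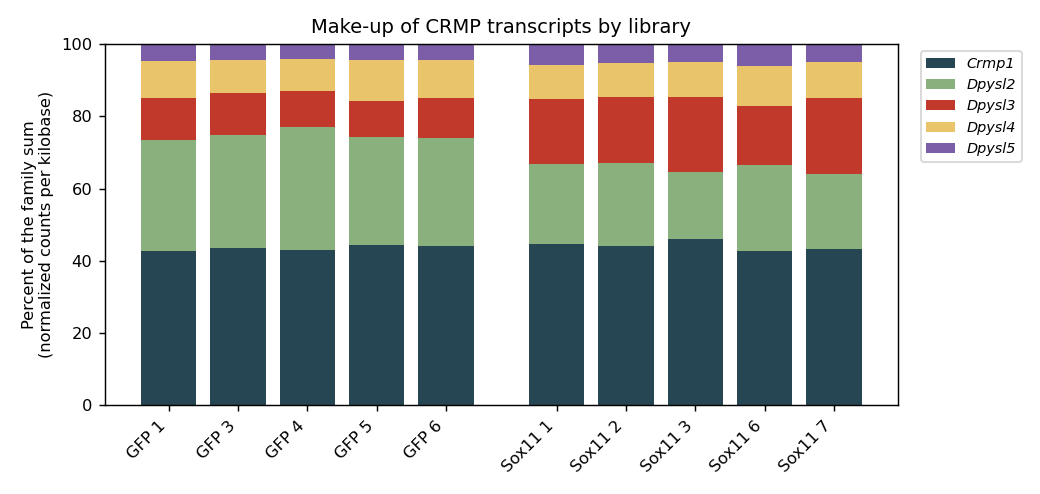
Percent of the family's summed normalized counts per kilobase (vertical axis, 0 to 100) that each CRMP gene made up in each of the 10 libraries. The Dpysl2 segment spans 29.8% to 34.2% in the GFP libraries and 18.5% to 23.9% in the Sox11 libraries, and the Dpysl3 segment 9.95% to 11.8% and 16.3% to 21.2%.

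Reads behind these values ranged from 1178 (Dpysl5 in GFP 3) to 36591 (Crmp1 in Sox11 3) per gene and library. Of the 31-base words of each member's transcripts 99.8% (Dpysl2 and Dpysl4) to 99.96% (Dpysl5) occur in no other gene. No exonic base of a member is covered by another gene on either strand. Values are sums over a gene's transcripts, so isoforms of the 4 members with more than 1 annotated transcript (each but Dpysl2) are not separated.

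RefSeq promoter windows (GRCm38.p6) were matched for 2 of the 5 members, Dpysl5 and Crmp1. The 250 bases before each start are shown for these 2, the only members with windows in the promoter set used here. Capitals mark each match to ACAAAG or ACAATG, letters of the core that SOX proteins bind, searched on both strands, on which they read CTTTGT and CATTGT in reverse. A match of one cannot overlap a match of the other, and a match is a description of letters only.
Dpysl5, chr5:30711314-30711563, plus strand: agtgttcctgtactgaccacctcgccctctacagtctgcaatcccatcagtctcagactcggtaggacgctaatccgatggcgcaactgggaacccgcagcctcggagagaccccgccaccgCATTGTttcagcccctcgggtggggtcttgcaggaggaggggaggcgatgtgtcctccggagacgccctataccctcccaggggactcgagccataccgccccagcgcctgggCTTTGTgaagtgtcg
Crmp1, first start, chr5:37241808-37242057, plus strand: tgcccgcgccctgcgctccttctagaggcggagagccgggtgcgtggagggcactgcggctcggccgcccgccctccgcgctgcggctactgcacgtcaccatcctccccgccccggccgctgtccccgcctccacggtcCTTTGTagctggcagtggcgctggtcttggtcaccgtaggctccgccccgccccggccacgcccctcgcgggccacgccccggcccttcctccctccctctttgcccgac
Crmp1, second start, chr5:37245514-37245763, plus strand: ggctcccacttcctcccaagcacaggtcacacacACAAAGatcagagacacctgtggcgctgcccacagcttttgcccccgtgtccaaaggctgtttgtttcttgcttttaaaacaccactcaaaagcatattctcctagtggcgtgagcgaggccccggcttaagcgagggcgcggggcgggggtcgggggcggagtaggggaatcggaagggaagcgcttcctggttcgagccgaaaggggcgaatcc

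The Dpysl5 window held 2 matches, with CATTGT 128 to 123 and CTTTGT 15 to 10 bases before the start. Each Crmp1 window held 1 match, 110 to 105 bases before the first start and 216 to 211 bases before the second. Among all 32851 promoter windows of this length 16.5% held ACAAAG, 10.7% ACAATG, 25.2% at least 1 of them and 1.91% both. The GC content was 62.8% for Dpysl5 and 75.6% and 59.6% for the Crmp1 windows, against a median of 52.4%. The promoter set used here held no windows for Dpysl2, Dpysl3 and Dpysl4, although Dpysl3 and Dpysl4 also rose.

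The genes whose profile was most like that of each member that rose were found over all 10 libraries among 14254 others whose mean reached 50 normalized counts. Likeness was the root mean square difference between profiles in log2 units, each profile set to its own GFP mean, so genes that changed by the same amount come first. Closest to Dpysl3 were Adam19, a membrane metalloprotease (0.11), Stmn1, the tubulin-binding protein stathmin (0.13), and Sh3bp2 (0.17). Closest to Dpysl5 were 2700081O15Rik (0.07), Apc2, a neuronal relative of the Apc microtubule-binding protein (0.10), and Gsdme (0.11). The nearest to Crmp1 were Smim18 (0.06), Rtn2, a reticulon of the endoplasmic reticulum (0.07), and Gfod2 (0.07). For Dpysl4 they were Tmem132a (0.06), Mycl, a Myc family transcription factor (0.07), and Gramd1a (0.08). Among the members the nearest pair was Crmp1 and Dpysl4 (0.12), and the most distant was Dpysl3 and Dpysl2 (0.95).

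The signalling route to the CRMPs starts at semaphorin 3A, which binds neuropilin 1 and a plexin A receptor. A list of 15 genes tested around this route also held Sema3f and Nrp2, another semaphorin and another neuropilin. Of the 15 genes 3 rose and none fell, against 9.65% and 9.36% of all genes tested, and the list's median log2 fold change was 0.10. Plxna3, a plexin A receptor, went from 1402 ± 197 to 2025 ± 204 normalized counts (SD, n = 5 each), or by 0.54 on the log2 scale (SE 0.10, limma adjusted p = 0.00366). Rnd1, a protein that binds plexins, rose by 0.80 on the log2 scale (SE 0.13, adjusted p = 0.00153). Mical1, an oxidoreductase that disassembles actin filaments downstream of plexins, rose by 0.54 (SE 0.08, adjusted p = 0.000755), and 15.0% of its exonic bases are covered by a gene on the opposite strand. The ligand Sema3a (0.50, SE 0.50), its receptor subunit Nrp1 (0.04, SE 0.09) and the receptors Plxna1 (0.10, SE 0.09), Plxna2 (0.00, SE 0.07) and Plxna4 (0.23, SE 0.12) did not pass. Farp2, also on the list, was lower but just missed the threshold (-0.25, SE 0.08, limma adjusted p = 0.0510). Its Sox11 values all lay below its GFP values.

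Of 13 kinases, kinase activators and phosphatases that act on CRMPs 3 rose and 1 fell (9.65% and 9.36% of all genes tested), with a median log2 fold change of -0.06. Dyrk2, a priming kinase for CRMPs, rose by 0.41 on the log2 scale (SE 0.08, adjusted p = 0.00443 in limma), the tyrosine kinase Fyn by 0.30 (SE 0.06, adjusted p = 0.00367) and Cdk5r1, the p35 activator of Cdk5, by 0.23 (SE 0.06, adjusted p = 0.0192). Rock2, a kinase that phosphorylates CRMP2, went from 14265 ± 1246 to 10192 ± 892 normalized counts (SD, n = 5 each), or by -0.49 on the log2 scale (SE 0.07, adjusted p = 0.00119). Of the 13 genes these 4 alone had groups that did not overlap, against 15.9% of all genes tested. Cdk5 (0.01, SE 0.05), Gsk3a (-0.06, SE 0.06) and Gsk3b (-0.08, SE 0.05), which phosphorylate the tail of several CRMPs, did not pass.

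Of 11 genes for proteins that bind CRMPs none rose and 1 fell, a share near the 9.36% of all genes tested that fell, and the median log2 fold change was 0.09. Kif5b, a heavy chain of the kinesin-1 motor that carries CRMP2 cargo, was lower, at -0.24 on the log2 scale (SE 0.06, adjusted p = 0.0204 in limma). That call was lost without GFP 4 (adjusted p = 0.0510) and with quantile normalization (adjusted p = 0.0602). The other kinesin-1 heavy chains Kif5a (0.16, SE 0.09) and Kif5c (0.09, SE 0.08), the endocytic adaptor Numb (-0.21, SE 0.07) and the actin regulators Cyfip1 (0.02, SE 0.06) and Wasf1 (0.17, SE 0.08) did not pass. Of the enzymes that CRMPs resemble, Dpys, dihydropyrimidinase itself, had 2.12 to 8.31 normalized counts over the 10 libraries and was not tested. Upb1, the next enzyme of that pathway, was also below the required mean of 10 normalized counts over all libraries, and Dpyd, the first, was at 0.27 on the log2 scale (SE 0.09, limma adjusted p = 0.0664).

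**Figure D4:**
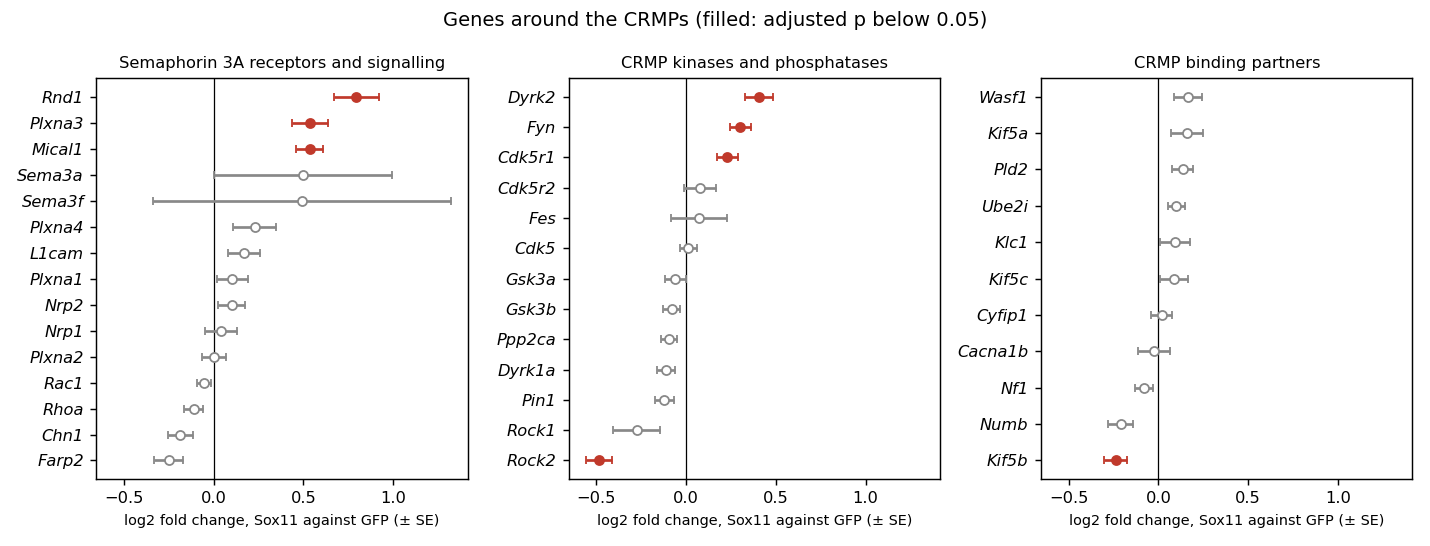
Log2 fold change (horizontal axis, Sox11 against GFP, ± SE) of genes on the semaphorin list, of CRMP kinases and phosphatases and of CRMP binding partners. Filled red points passed an adjusted p of 0.05, namely Rnd1, Plxna3, Mical1, Dyrk2, Fyn and Cdk5r1 above 0 and Rock2 and Kif5b below 0.

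Of 13 markers of immature neurons 7 rose, 6 did not pass and none fell (9.65% of all genes tested rose and 9.36% fell). Those that rose included Dcx (log2 fold change 1.77, SE 0.11), Stmn1 (1.52, SE 0.08) and Tubb3 (1.14, SE 0.12). The summed level of the list went from 51493 to 67711 normalized counts among GFP libraries and from 108778 to 143000 among Sox11 libraries. The list was chosen with earlier results of these data known. Eomes (-0.33, SE 0.22), Sox4 (-0.17, SE 0.09), Neurod1 (0.01, SE 0.09), Calb2 (0.06, SE 0.24), Gap43 (0.09, SE 0.15) and Igfbpl1 (0.16, SE 0.10), which are on the same list, did not pass. Of 7 markers of proliferation and progenitors 1 rose, Fabp7 (0.40, SE 0.09), and none fell. The 6 that did not pass include the division genes Mki67 (0.01, SE 0.12) and Top2a (-0.20, SE 0.14). Oligodendrocyte markers, of interest because these cells also make CRMPs, had no member of 8 past the threshold and sums of 80439 to 149669 and 69962 to 169263 normalized counts. Of 9 interneuron markers 3 fell (Gad2, Npy and Lamp5), with sums of 37271 to 44328 and 29727 to 37445.

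Markers of some other cells of the region also differed, against the same shares of 9.65% of all genes tested that rose and 9.36% that fell. None passed of 8 CA1 and CA3 pyramidal neuron, 6 endothelium, 5 oligodendrocyte precursor and 6 choroid plexus markers. Among 8 microglia markers 1 rose (C1qb) and none fell. Of 8 astrocyte markers 3 rose, namely Gfap (0.46 on the log2 scale, SE 0.08), Sox9 (0.29, SE 0.08) and Aldh1l1 (0.22, SE 0.05), with sums of 289258 to 370180 normalized counts under GFP and 319317 to 398365 under Sox11. Of 6 mossy cell markers 3 fell, namely Nmb (-0.75, SE 0.19), Ociad2 (-0.44, SE 0.10) and Ajap1 (-0.41, SE 0.06), with sums of 11338 to 14245 and 9455 to 12806. Of 8 granule neuron markers Rfx3 (0.43, SE 0.13) and Lct (0.29, SE 0.09) rose and Pdzd2 (-0.79, SE 0.19), C1ql2 (-0.41, SE 0.12) and Plk5 (-0.39, SE 0.07) fell, with sums of 65538 to 91944 and 68245 to 96329. The summed levels of the astrocyte, mossy cell and granule neuron lists overlapped between the groups. The part of these cell types in the CRMP values was not tested.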

How the data were processed

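Messenger RNA of 10 dentate gyrus samples, each from its own mouse per the design text, was sequenced from stranded libraries, per the labels' protocols. Tools named in the submitters' processing notes are bcl2fastq (1.8.4), cutadapt (1.9.1), STAR (2.5.2a), featureCounts (1.5.1), DESeq2 (1.12.3) and R (3.3.1), with the build GRCm38. Counting strand, multimapping and annotation release were not given in the sources used here. What the authors deposited is a signal per gene, normalized counts, in which read counts were divided by 1 factor per library, as the labels and values show. All values above 0 (100%) were whole multiples of 1 read within 0.01 reads, which gave 45100154 to 68769808 reads per library. Column numbers did not match sample titles, so columns were mapped to groups only.

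The 17007 genes whose mean reached 10 normalized counts were tested on log2(normalized count + 1) by limma (3.58.1, trend and robust) in R (4.3.3), with Benjamini-Hochberg adjustment over all of them and a threshold of 0.05. Fold changes on this scale understate low genes. Symbols, positions and lengths came from GENCODE M21 (GRCm38), which matched 48144 identifiers. Ratios used exact permutation over libraries (scipy 1.17.1). The fits were tested on simulated data. Alternatives were pseudocounts, filters, TMM and quantile scaling, limma without trend and robust, a term for column numbers, tests of the recovered reads (edgeR 4.0.16, DESeq2 1.42.0, voom in limma), and each library left out. The subsets by column number and the block by shared number were chosen after seeing the data. Named genes were the members, Sox11, Dcx, Stmn1, Tubb3, pathway genes past the threshold (or of lowest p) and the 3 most alike profiles, and other genes were named after their values were seen. The members and lists were chosen with earlier results of these data known. Python (3.11.15) with pandas (2.3.3), numpy (2.4.6) and matplotlib (3.10.9) made the summaries and plots.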

Additional observations from a re-analysis of the deposited data

How the results depend on the processing

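Dpysl3, Dpysl5, Crmp1 and Dpysl4 held their direction in each alternative run. Dpysl5 passed the threshold in each too, and the other 3 in 24, all but the replicate block described below. Dpysl2 held its direction in each and passed the threshold in 3 of them, with log2 fold changes of 0.18 with a term for column numbers and 0.18 with quantile normalization, and from 0.11 (without GFP 3) to 0.20 (without GFP 4, where it passed) with each library left out. The cause was not tested. All 10 ratios between members kept their side of the threshold in 14 alternatives. With the longest transcript as length, which changes the values by construction, levels per kilobase under GFP and Sox11 were 4773 and 7784 for Crmp1, 624 and 1747 for Dpysl3, 677 and 1069 for Dpysl4 and 297 and 589 for Dpysl5. The shares of the family sum then were 60.8% and 60.6% for Crmp1, 18.8% and 12.9% for Dpysl2, 7.98% and 13.5% for Dpysl3, 8.59% and 8.35% for Dpysl4 and 3.79% and 4.62% for Dpysl5.

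Over all genes 1642 rose and 1592 fell, and with column numbers 1 to 3 only, which leaves 2 GFP and 3 Sox11 libraries, 589 and 424 did. A term for column numbers 1 to 3 against 4 to 7 gave 2067 and 1981, and the recovered reads 1727 and 1510 in edgeR and 2039 and 2023 in DESeq2. DESeq2 also called 2 binding partners and 2 semaphorin genes lower and 1 dihydropyrimidinase pathway gene higher. With each library left out, binding partners that fell numbered 0 (without GFP 4) to 2 (without GFP 6), semaphorin genes that fell 0 to 1 (without GFP 1 or Sox11 1), and dihydropyrimidinase pathway genes that rose 0 to 1 (Dpyd, without Sox11 2). In limma Dpyd also passed with the term for column numbers (0.32, adjusted p = 0.00236) and with 4 to 7 only (0.41, adjusted p = 0.00962). Of the named pathway genes, Rnd1, Plxna3 and Mical1 missed the threshold with column numbers 1 to 3 only, Dyrk2 and Cdk5r1 with 4 to 7 only, and Kif5b with either.

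Column numbers 1, 3 and 6 occur in both groups. With these 6 libraries and the number as a replicate block, a fit added after seeing the data, log2 fold changes were 1.39 for Dpysl3, 0.76 for Crmp1 and 0.75 for Dpysl4, with limma adjusted p = 0.0651, 0.0983 and 0.0950, and 1.04 for Dpysl5 (adjusted p = 0.0349). The block called 40 genes higher and 2 lower. The same 6 libraries without it called 409 and 194, with Dpysl3, Dpysl5, Crmp1 and Dpysl4 past the threshold. Of the 8 named pathway genes past the threshold in all 10 libraries, none passed with the block, and Plxna3 and Rock2 did without it. The numbers were not treated as pairing mice. Deviations from the group means over genes correlated at 0.19, 0.07 and 0.41 for numbers 1, 3 and 6, and GFP 3 was closest to Sox11 2 (0.62). Those correlations were 0.07 to 0.62 between libraries numbered 1 to 3, 0.22 to 0.50 between those numbered 4 to 7 and -0.63 to -0.02 across the 2 ranges. Each member had at least 1178 reads in each library, and the number of mice, 5 a group, limits the precision.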
